A study of Macaca mulatta with 4 samples.

Results

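This section describes the open chromatin of chromosome 3 of the rhesus macaque (Macaca mulatta), the counterpart of human chromosomes 7 and 21, in morulae that carry chromosomes from 1 parent only. Its members are all hotspots listed on chromosome 3 in 4 DNase-seq libraries, 23763 of 328084 hotspots (7.24%), and the 16938 merged regions they form, of 222970 in all. The libraries were made from androgenetic (AG) morulae, replicates 1 and 2, and gynogenetic (GG) morulae, replicates 1 and 2. Nuclear genomes of AG embryos come from sperm alone and those of GG embryos from the oocyte alone, so that AG against GG sets paternal against maternal copies of the chromosome. The embryos in every group were morulae, and all samples were digested at 37 °C for 5 min with DNase I at 40 U/ml. Per the labels, the embryos came from a supplier and an institute, and neither the number of embryos in a library nor separate cultures for the replicates are stated. P-values thus measure only the spread between these libraries, which may be technical. Parental origin cannot be told apart from the animals used or from how the embryos were made.

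DNase I cuts DNA where it is free of tightly packed nucleosomes, which is mostly at promoters, enhancers and other regulatory sites. A hotspot is a stretch with more cuts than its surroundings, called here in each library at a false discovery rate of 0.01. A morula is the ball of cells that forms after the embryo has begun to transcribe its own genome and before the first cell types separate. Genomic imprinting marks a small number of genes so that only the paternal or only the maternal copy is active. Human chromosome 7 has well-known cases, such as PEG10 (a gene derived from a retrotransposon, needed in the mouse placenta), its neighbour SGCE (epsilon-sarcoglycan), MEST (a hydrolase-like protein) and GRB10 (an adaptor that dampens insulin receptor signalling).

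The link to human chromosomes 7 and 21 was checked by gene names in NCBI RefSeq's annotation of a different macaque assembly, T2T-MMU8v2.0. All 18 genes there with a name of the C7orf kind, which records a place on human chromosome 7, and all 6 with a name of the C21orf kind lay on macaque chromosome 3. The 18 names from human chromosome 7 all followed the 6 from human chromosome 21 in that assembly. Of a list of 19 genes that are imprinted, or reported to be, on these human chromosomes, 18 were annotated on chromosome 3, PEG10, SGCE, MEST and GRB10 among them. The hotspots are given on the rheMac8 build, so they were not assigned to genes and no gene on the list has a value here. Positions below are on rheMac8 and counted from 1.

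Both AG libraries held fewer hotspots on chromosome 3 than either GG library. AG replicate 1 had 4429 and AG replicate 2 had 6057, against 7020 in GG replicate 1 and 6257 in GG replicate 2. The groups did not overlap, but AG replicate 2 lay much closer to GG replicate 2 than to AG replicate 1. Covered length was 4.45 and 5.83 Mb in the AG libraries, against 7.42 and 6.53 Mb in the GG libraries. Means were 5.14 ± 0.976 Mb in AG and 6.97 ± 0.626 Mb in GG (SD, n = 2 libraries each), so that AG reached 0.737 times the GG level. The two-sided exact permutation test gave p = 0.333 for both measures, the smallest p that 2 libraries against 2 allow. Both differences depended on list length. With every list shortened by score to the covered length of the shortest, hotspot number was 925.5 higher in AG (AG minus GG -1395.5 with the full lists and -581.5 without AG replicate 1). Covered length then differed by -0.0740 Mb (-1.84 Mb with the full lists and -1.15 Mb without AG replicate 1), and the groups overlapped (two-sided exact permutation p = 0.667). The lists hold no read counts, so sequencing depth is unknown and its part in these totals was not tested.

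The share of a library's covered length that fell on chromosome 3 sets the amount against the library's own total. It was 6.56% and 6.91% in AG replicates 1 and 2, against 7.26% and 7.01% in GG replicates 1 and 2. Shares were thus lower in both AG libraries, by 0.402 percentage points on average (two-sided exact permutation p = 0.333), and the AG replicate 2 and GG replicate 2 shares lay close together. The difference was -0.224 points without AG replicate 1. It was -0.109 points when every list was shortened by score to the covered length of the shortest. The groups overlapped in that setting (two-sided exact permutation p = 0.667).

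Chromosome 3 was close to the other autosomes in hotspot density, while in every library a smaller share of its hotspots lay in regions that all 4 libraries held. Hotspot density was 23.8 and 32.6 per Mb in the AG libraries and 37.8 and 33.7 per Mb in the GG libraries, against 24.2 and 31.8 (AG) and 34.6 and 31.5 (GG) on the other 19 autosomes together. Chromosome 3 was above the other autosomes in 3 of 4 libraries, by 1.43 ± 1.57 per Mb (SD of 4 differences, two-sided exact sign-flip test p = 0.25). With only the higher-scoring 50% of hotspots it was -0.251 per Mb. Of the chromosome's hotspots, 19.0% and 13.7% in the AG libraries lay in a region called in all 4 libraries, against 23.8% and 17.8% of those on the other autosomes. The GG libraries showed the same, with 12.1% and 14.3% on chromosome 3, against 16.7% and 18.5% on the other autosomes. The mean over libraries was 14.8% on chromosome 3, against 19.2% on the other autosomes. These percentages all count the same 746 regions, so the 4 libraries are not independent here and no test is given. Among the 20 autosomes chromosome 3 ranked 17th by the share of its merged regions called in all 4 libraries, 4.40% against 5.91% over all autosomes.

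Hotspots on chromosome 3 were mostly short. Median widths were 887 and 883 bp in the AG libraries, against 885 and 900 bp in the GG libraries, and the groups overlapped (AG minus GG -7.5 bp, two-sided exact permutation p = 0.667). The middle 80% of hotspots ran from 467 to 1814 bp in AG replicate 1 and from 448 to 1991 bp in GG replicate 1, and the extremes of all 4 lists were 10 and 7741 bp. Medians were lower than on the other autosomes in all 4 libraries, by 17.3 ± 6.24 bp (SD, two-sided exact sign-flip test p = 0.125).

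The groups came apart among wide hotspots. Hotspots over 3 kb made up 1.76% and 1.42% of the lists in AG replicates 1 and 2, against 3.35% and 2.64% in GG replicates 1 and 2. In numbers these were 78 and 86 hotspots in the AG libraries, against 235 and 165 in the GG libraries. The AG share was 0.532 times the GG share (exact permutation p = 0.333). On the other autosomes the shares were 2.47% and 1.75% in AG, against 3.81% and 3.62% in GG, so wide hotspots were also rarer in AG there. Width depended on the part of the list used: with every list shortened by score to the same covered length, the AG minus GG difference in median width was -166.5 bp.

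Most regions of chromosome 3 were called in a single library. Of the 16938 merged regions, 13046 (77.0%) were in 1 library, 2309 (13.6%) in 2, 837 (4.94%) in 3 and 746 (4.40%) in all 4. On the other autosomes 74.8% were in 1 library and 6.03% in all 4. Width grew with sharing, from a median of 767 bp for regions in 1 library, through 1279 bp in 2 and 1903 bp in 3, to 2947 bp in all 4. Merging itself widens a region that several libraries hold. Regions in all 4 libraries made up 13.6% of the merged length. The plot of regions by the libraries that hold them shows each combination.

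**Figure D1:**
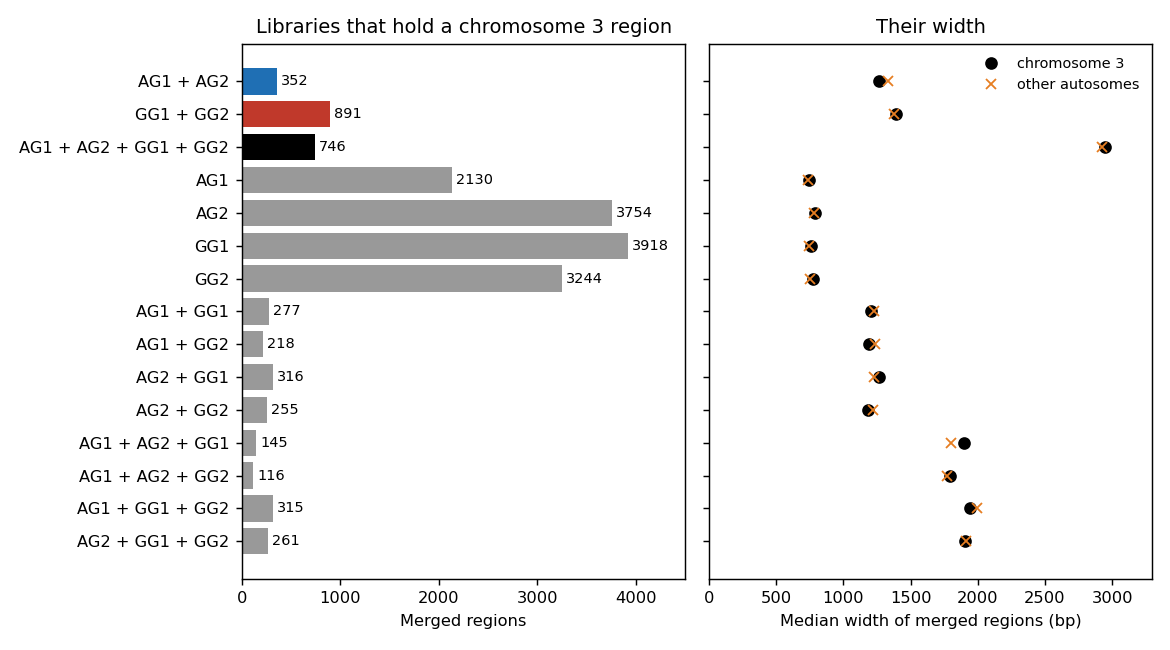
Left, number of merged chromosome 3 regions (x axis) held by each combination of libraries (y axis), with AG-only in blue, GG-only in red and all 4 in black; right, their median width in bp on chromosome 3 (dots) and on the other autosomes (crosses). Regions of 1 library are the most numerous, at 2130 to 3918 each, and regions of all 4 are the widest, with a median of 2947 bp.

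Pairs of libraries shared little of chromosome 3 by position. The Jaccard index, the bp covered in both libraries over the bp covered in either, was 0.142 for the AG pair and 0.206 for the GG pair. The other 4 pairs, each of 1 AG and 1 GG library, lay between 0.114 and 0.144. The AG pair fell within the range of the mixed pairs, while the GG pair stood above every other pair. AG replicate 1 overlapped AG replicate 2 with 31.2% of its hotspots, GG replicate 1 with 34.5% and GG replicate 2 with 32.2%. GG replicate 2 overlapped GG replicate 1 with 37.5% of its hotspots, AG replicate 1 with 22.8% and AG replicate 2 with 22.5%. All 6 indices were lower than on the other autosomes, where the AG pair had 0.170, the GG pair 0.251 and the mixed pairs 0.146 to 0.175. Indices of pairs share libraries and carry no test.

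Whether a hotspot was found again went with its score, the authors' own value, used here to rank hotspots within a list and, where named regions are ordered, by its lowest value over the libraries that hold a region. In AG replicate 1, with chromosome 3 hotspots in 5 equal parts by score, 15.1% of the lowest and 64.9% of the highest part overlapped a hotspot of AG replicate 2. For AG replicate 2 in AG replicate 1 the shares were 9.41% and 52.4%. GG replicate 1 had 11.97% and 72.2% in GG replicate 2, and GG replicate 2 had 17.0% and 76.2% in GG replicate 1. For AG hotspots the shares found in GG libraries lay near those found in the other AG library, at 62.9 to 65.3% for the highest part of AG replicate 1 and 50.4 to 51.7% for that of AG replicate 2. For GG hotspots the shares found in AG libraries were lower than in the other GG library, at 50.9 to 53.1% for GG replicate 1 and 54.0 to 56.9% for GG replicate 2. Higher-scoring hotspots were also wider, with medians of 647 bp in the lowest and 1283 bp in the highest part of AG replicate 1, and wide hotspots are more easily overlapped. The AG lists also covered less of the chromosome, 4.45 and 5.83 Mb, against 7.42 and 6.53 Mb in GG. A list that covers less is less easily hit, and the part of this in the shares was not tested.

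**Figure D2:**
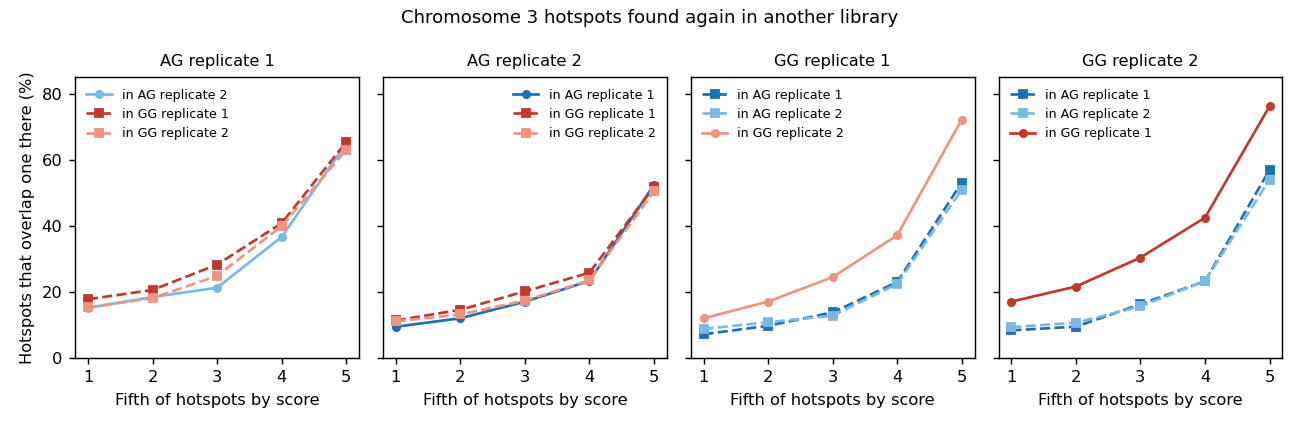
Each panel takes the chromosome 3 hotspots of 1 library in 5 equal parts from the lowest (1) to the highest score (5) and gives the percentage that overlap a hotspot of each other library by at least 1 bp (solid, same kind of embryo; dashed, the other kind). In the AG panels the 3 lines run together, at 62.9 to 65.3% in the highest part of AG replicate 1, and in the GG panels the other GG library lies above both AG libraries.

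The 746 regions called in every library held hotspots of both kinds of embryo, 1 bp each being enough (202 with at least 50% covered). Ordered by the lowest of their 4 scores, which takes scores across lists, the first 5 lay at 51467139 to 51469718, 16221087 to 16222624, 156801564 to 156802867, 101119887 to 101124386 and 28661793 to 28664715. At 51467139, scores were 30.5 and 80.3 in AG replicates 1 and 2, against 79.5 and 57.5 in GG replicates 1 and 2, and this was the top hotspot of the chromosome in AG replicate 1 and in GG replicate 1. At 16221087, scores were 23.1 and 107 in the AG libraries, against 61.1 and 62.1 in the GG libraries. At 156801564 they were 20.8 and 58.2 in AG, against 49.0 and 47.6 in GG. These 3 regions ranked among the 8 highest of the chromosome in every list. Scores of different lists are not on a known common scale, so their sizes are not compared. Chromosome 3 did not hold the top hotspot of any list. Its best hotspot, not always in these regions, ranked 179th of 64730 and 85th of 85318 in AG replicates 1 and 2. In GG replicates 1 and 2 the best ranked 92nd of 93171 and 107th of 84865.

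Within regions called in every library, less was called in AG. The mean called length per region was 1791 and 1714 bp in AG replicates 1 and 2, against 2278 and 2121 bp in GG replicates 1 and 2, or 1752 ± 54.7 bp in AG and 2199 ± 111 bp in GG (SD, n = 2 libraries each). AG thus reached 0.797 times the GG length (two-sided exact permutation p = 0.333). Each AG library had more bp called than either GG library in 77 of the 746 regions (10.3%), and more in both GG libraries in 277 (37.1%). Over all 13158 such regions on autosomes these shares were 12.5% and 34.6%, so chromosome 3 lay near the background in both.

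The widest regions are given as single sites. Their pick by merged width favours sites with long calls, and wide hotspots were more common in GG. The widest ran from 133285154 to 133298648, 13495 bp, of which 5092 and 4869 bp were called in the AG libraries, against 10174 and 7931 bp in the GG libraries. At 167934026 to 167943294, 2148 and 1807 bp were called in AG, against 8103 and 5983 bp in GG. At 156040434 to 156048876, 1089 and 1944 bp were called in AG, against 7445 and 5980 bp in GG. In these 3 regions both AG libraries lay below both GG libraries. The groups overlapped at 73437058 to 73446655, with 3799 and 5131 bp in AG, against 7169 and 2060 bp in GG, and at 130297001 to 130305798, with 5927 and 4371 bp in AG, against 7043 and 5352 bp in GG.

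Regions called in both libraries of only 1 kind of embryo were fewer for AG. There were 352 AG-only regions, held by the AG pair and absent from both GG libraries, against 891 GG-only regions, 0.395 times as many. On the other autosomes the ratio was 0.387. AG-only regions made up 2.08% of the merged regions of chromosome 3 and GG-only regions 5.26%, against 2.12% and 5.48% of all autosomal regions, so neither share stood out from the background. The 4 combinations of an AG with a GG library held 218 to 316 regions each, somewhat fewer than the AG pair. The GG count depended on list length: with lists shortened to the same covered length there were 362 AG-only and 415 GG-only regions. AG-only regions had a median width of 1265 bp, against 1389 bp for GG-only regions, and lay a median of 61.9 kb and 78.3 kb from the nearest region called in all 4 libraries. Few lay close to one: 58 AG-only regions (16.5%) and 148 GG-only regions (16.6%) were within 10 kb.

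The highest-scoring AG-only region by its weaker library lay at 175621041 to 175624172, with scores of 16.9 and 12.4 in AG replicates 1 and 2 and 3132 and 1306 bp called. It was followed by 39030010 to 39031000 (scores 12.01 and 11.9) and 158451540 to 158454533 (11.5 and 13.2). The last 2 were 115947745 to 115948546 (10.4 and 13.3) and 52059382 to 52060996 (10.04 and 12.2). Some rest on short calls in 1 library: at 39030010 AG replicate 2 had only 92 bp, and at 115947745 AG replicate 1 had only 35 bp.

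The first of the GG-only regions lay at 132706930 to 132711032, with scores of 14.1 and 14.8 in GG replicates 1 and 2 and 2094 and 4103 bp called. Next was 75153458 to 75154174 (scores 12.9 and 15.6), where GG replicate 1 had only 38 bp. The others were 4989804 to 4991783 (12.9 and 11.7), 53502185 to 53502982 (11.2 and 11.4) and 3285319 to 3289016 (16.8 and 11.0). The best rank of any of these 10 regions on the chromosome was 20th, that of 175621041 in AG replicate 1.

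Hotspots were spread over the whole chromosome, with the first at 15811 and the last end at 185814776. No stretch without a hotspot in any list was longer than 144 kb (50718892 to 50863225), followed by 139 kb (145546942 to 145686036) and 136 kb (179907433 to 180043733). Only 26 of 16937 gaps between neighbouring merged regions exceeded 100 kb, and the median gap was 5.31 kb. Within a library the median gap was 18989 and 15962 bp in AG, against 12996 and 14443 bp in GG.

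In segments of 10 Mb the covered length varied widely along the chromosome. The 5th segment (40000001 to 50000000) was among the richest, with 397 and 536 kb covered in the AG libraries, against 528 and 435 kb in the GG libraries. The 13th (120000001 to 130000000) had 399 and 442 kb in the AG libraries, against 544 and 474 kb in the GG libraries. These segments also held the most regions called in all 4 libraries, 75 and 72. The poorest full segments by the mean of all libraries were the 3rd (20000001 to 30000000), with 101 and 160 kb in the AG libraries, against 206 and 221 kb in the GG libraries, and the 10th (90000001 to 100000000), with 123 and 156 kb in the AG libraries, against 290 and 265 kb in the GG libraries. These poor segments held 12 and 17 regions called in all 4.

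The deficit of AG was uneven along the chromosome. In the 5th segment AG reached 0.968 times the GG covered length, and in the 19th, at the end of the chromosome, 1.05 times. In the 15th segment (140000001 to 150000000), with 96.1 and 161 kb in the AG libraries, against 320 and 273 kb in the GG libraries, it was 0.433 times. In the 10th it was 0.503 times and in the 12th (110000001 to 120000000) 0.535 times. As shares of a library's covered length on the chromosome, 7 of 19 segments (36.8%) were higher in both AG libraries and 7 (36.8%) lower in both, while over all 278 segments of autosomes 27.7% were higher and 33.8% lower in both AG. Shares of a chromosome add up to its whole, which ties the counts in the 2 directions to each other. By covered length itself, no segment was higher in both AG libraries (0 of 19, background 2.16%) and 15 were lower in both (78.9%, background 69.4%). The 5th segment took 8.92% and 9.19% of the chromosome in AG, against 7.12% and 6.66% in GG. The 15th took 2.16% and 2.76% in AG, against 4.32% and 4.18% in GG. The 19th was the only segment with more AG-only than GG-only regions, 18 against 16.

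**Figure D3:**
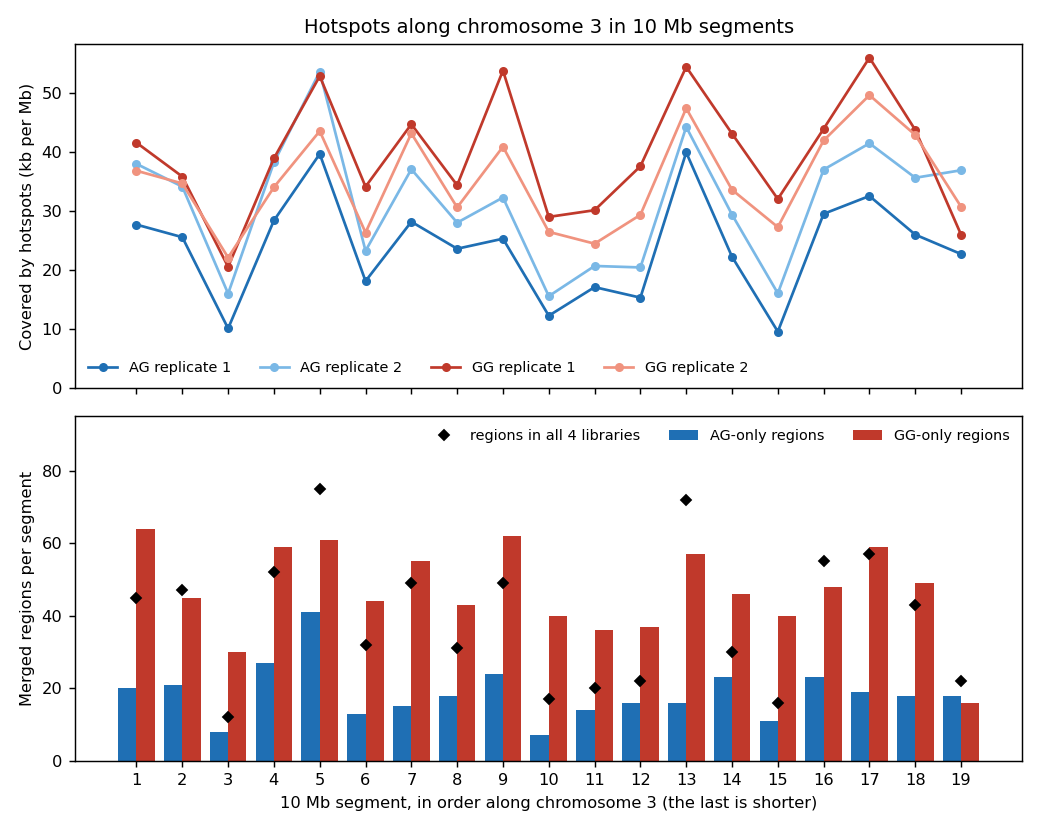
Top, length covered by hotspots in kb per Mb in each of 19 segments of 10 Mb in order along chromosome 3 (the last is shorter), 1 line per library; bottom, AG-only (blue) and GG-only regions (red) and regions in all 4 libraries (diamonds) per segment. The 5th and 13th segments are rich in all 4 libraries, and relative to the GG lines the AG lines are lowest in the 15th, 10th and 12th segments.

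At 1 Mb the chromosome had 186 windows, with a median of 18.9 and 26.0 kb covered in AG replicates 1 and 2, against 36.1 and 30.3 kb in GG replicates 1 and 2. The richest window was 126000001 to 127000000, with 84.7 and 99.7 kb in the AG libraries, against 108 and 102 kb in the GG libraries. It was followed by the windows that start at 41000001, 42000001, 155000001 and 125000001, so that 4 of the 5 richest lay in 2 adjoining pairs. These 5 windows held 15 to 20 regions called in all 4 libraries each. The poorest was 24000001 to 25000000, with 2.82 and 6.87 kb in the AG libraries, against 10.4 and 13.01 kb in the GG libraries, followed by those at 144000001, 104000001, 27000001 and 145000001. Of these 5 windows only that at 145000001 held a region called in all 4, and it held 1. The 18 richest windows of each library took 27.2% and 22.5% of the covered length in AG, against 20.8% and 20.8% in GG.

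To compare AG with GG window by window, covered bp plus an offset of 1000 bp was divided by the library's mean over all windows of the genome, and log2 values were tested with limma. None of the 186 windows of chromosome 3 passed an adjusted p of 0.05, and over all 2682 windows 0% passed. At an unadjusted p of 0.05, 7 windows were higher in AG (3.76%) and 31 lower in AG (16.7%), where over all windows these shares were 6.67% and 11.3%. The count of 38 in both directions was 20.4% of the windows (background 18%). Fits with 1 library left out hold 1 library in a group, so their counts are not read as a result. Both AG libraries lay above both GG libraries in 36 windows (19.4%, background 24.1%) and below in 73 (39.2%, background 28.9%). These counts depended on the scaling and on list length. Scaled to the median window, 49 lay above (26.3%, background 31.1%) and 58 below (31.2%, background 21.7%). With each library centred within each chromosome, 68 lay above (36.6%, background 28.3%) and 47 below (25.3%, background 22.5%). Centring removes any difference that holds over the whole chromosome, so this shift in the counts follows in part from the setting itself. With lists shortened to the same covered length, 42 lay above (22.6%, background 25.7%) and 54 below (29.0%, background 25.7%). Over 2-fold differences were found in 5 windows higher in AG (2.69%, background 2.65%) and 21 lower in AG (11.3%, background 8.72%).

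The 5 windows higher in GG with the smallest p had small amounts in both AG libraries. From 140000001 to 141000000, 4.40 and 5.60 kb were covered in the AG libraries, against 25.4 and 22.4 kb in the GG libraries. The AG hotspots there numbered 8 and 8, against 28 and 29 in GG, and the scaled log2 difference was -1.70 (AG minus GG, standard error 0.22). From 56000001 to 57000000, 3.70 and 4.32 kb were covered in the AG libraries, against 25.3 and 18.2 kb in the GG libraries (log2 -1.81, standard error 0.24).

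From 109000001 to 110000000, 4.60 and 7.99 kb were covered in the AG libraries, against 38.6 and 29.2 kb in the GG libraries, the largest difference of any window on the chromosome (log2 -1.93, standard error 0.26, which is 0.262 times the GG level after scaling and offset). The limma adjusted p was 0.132 for each of these 3 windows (n = 2 libraries per group). It was 0.145 for the window at 118000001 (log2 -1.27) and 0.149 for that at 95000001 (log2 -1.54). Each of these 5 windows held 7 to 11 GG-only regions, and only that at 95000001 held an AG-only region, 1. Over the chromosome there were 4.80 GG-only and 1.89 AG-only regions per Mb. Such regions are part of the covered length by which the windows were picked, so these counts are no separate support. With a variance trend, limma called 16 windows of the chromosome (8.60%, background 8.13%), 2 higher and 14 lower in AG, with all 5 among them, at adjusted p from 0.00223 to 0.0368. With an offset of 10000 bp it called 13 (6.99%, background 5.07%), 2 higher and 11 lower in AG. Both shares lay near those over all windows.

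The windows higher in AG with the smallest p lay at 19000001, 184000001, 115000001, 135000001 and 1. From 19000001 to 20000000, 21.1 and 28.1 kb were covered in the AG libraries, against 16.2 and 12.4 kb in the GG libraries (log2 1.09, standard error 0.23). From 184000001 to 185000000, 20.8 and 33.1 kb were covered in the AG libraries, against 8.71 and 14.4 kb in the GG libraries (log2 1.51, standard error 0.35), the largest difference in this direction. This window near the end of the chromosome held 5 AG-only and 0 GG-only regions, which are part of the covered length by which it was picked. In all 5 windows both AG libraries covered more than both GG libraries even without scaling. The margin was small from 135000001 to 136000000, with 12.8 and 19.1 kb in the AG libraries, against 12.1 and 6.88 kb in the GG libraries, and from 1 to 1000000, with 32.3 and 45.8 kb in AG and 31.3 and 29.0 kb in GG. The limma adjusted p ran from 0.149 to 0.217 for these 5 windows.

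**Figure D4:**
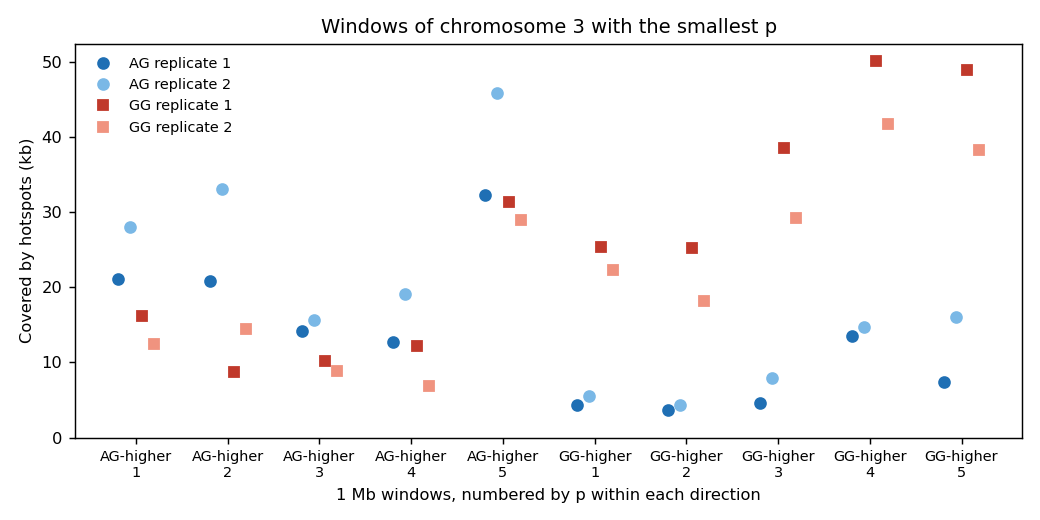
Length covered by hotspots in kb (y axis) in each library, for the 5 windows of 1 Mb higher in AG and the 5 higher in GG with the smallest limma p, numbered by p (AG circles in blue, GG squares in red). In the first window higher in GG, the AG libraries reach at most 5.60 kb and the GG libraries at least 22.4 kb.

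Most of the 73 windows lower in both AG libraries adjoined another such window, and 13 stood alone. The longest run had 11 windows, from 85000001 to 96000000, with 152 and 206 kb covered in the AG libraries, against 444 and 353 kb in the GG libraries, and log2 differences from -1.57 to -0.34. Runs of 6 windows spanned 118000001 to 124000000 and 138000001 to 144000000. The run that starts at 138000001 had a median log2 difference of -0.96. The longest runs higher in both AG libraries had 4 windows, from 33000001 to 37000000 (median log2 0.44) and from 124000001 to 128000000 (median log2 0.32), and the second of these held 2 of the 5 richest windows. The longest run lower in AG also had 11 windows on chromosome 5 and had 8 on chromosome 8. Runs were described after scaling to the mean window and carry no test.

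The difference between AG and GG went with how much of a window was covered. Over the 62 poorest windows of chromosome 3, ranked by the mean of all 4 libraries, the median log2 difference was -0.54, over the middle 62 it was -0.26 and over the 62 richest 0.06. Over all windows of the genome the 3 medians were -0.22, -0.14 and 0.08. Both AG libraries were above both GG libraries in 7 of the poorest, 9 of the middle and 20 of the richest windows. Both lay below both GG libraries in 29, 29 and 15. No such counts are given over all windows of the genome, whose medians rose in the same order. Whether these counts are particular to chromosome 3 was not tested. AG replicate 1 had the least covered length of all libraries in 137 of the 186 windows. The gap between the poorest and the richest windows, -0.61, was -0.22 without AG replicate 1, -0.19 with lists shortened to the same covered length and -0.19 with an offset of 10000 bp. This comparison was chosen after the windows had been seen, and the ranking uses the same values as the difference.

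**Figure D5:**
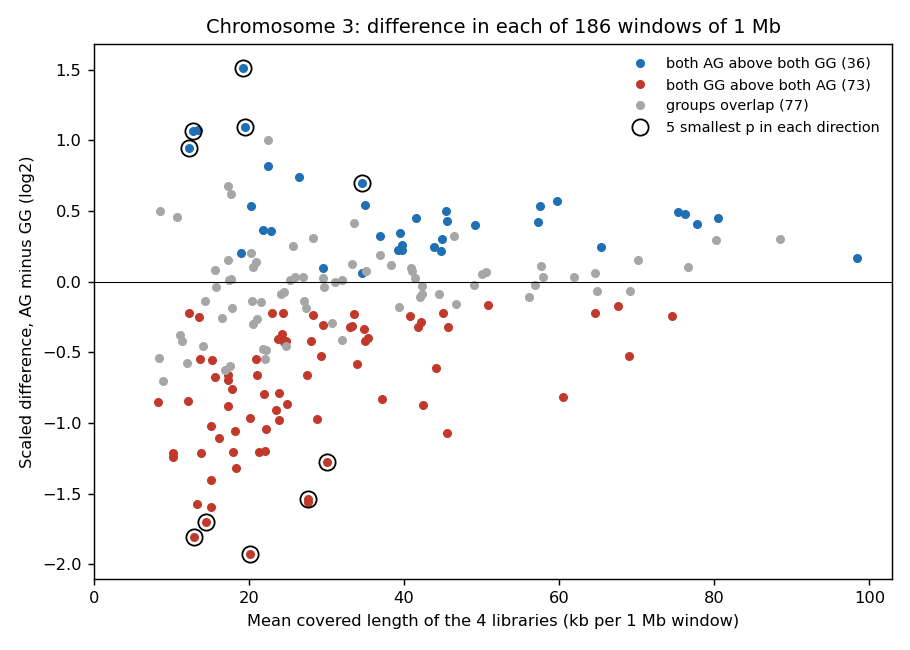
Scaled difference between AG and GG (log2, y axis) against the mean covered length of the 4 libraries (kb, x axis) for the 186 windows of 1 Mb on chromosome 3; colours show where both libraries of 1 kind lie above both of the other, and rings mark the 5 smallest p in each direction. Of the 62 poorest windows 44 lie below 0, and the 29 windows above 50 kb lie between -0.81 and 0.57.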

How the data were processed

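The 4 DNase-seq libraries of rhesus macaque morulae, 2 AG and 2 GG, were assigned to groups by their titles. The authors deposited 1 hotspot list per library, not pooled, with a score for each hotspot. What scale the score has and which program called the hotspots is not stated here. Per the file names the false discovery rate was 0.01. The submitters' processing notes name the rheMac8 build and, as tools, deepTools 3.3.1, SAMtools, Bowtie2 and Trim Galore. Without read counts the depth is unknown, and no counting interval can be given.

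Overlapping or touching hotspots were merged over the 4 lists, and 1 bp of overlap was enough to count a region as present. Starts were taken as counted from 0 and printed plus 1. Length of the chromosome was the last hotspot end in any list. Libraries were compared by exact permutation tests, and chromosome 3 with the other autosomes by exact sign-flip tests. All 1 Mb windows whose mean covered length reached 2000 bp, over all chromosomes, were tested with limma 3.58.1 in R 4.3.3 (trend and robust off, Benjamini-Hochberg over 2682 windows, no replicate block). The window test was also run on simulated data with known changes, and its outcome is not given here. Replicate numbers 1 and 2 in the labels are not stated to pair AG with GG libraries. Over all windows the differences between replicates 1 and 2 of AG and of GG correlated at r = -0.0842, and over those of chromosome 3 at r = 0.122, and the numbers were not used as pairs.

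The text names the 5 windows with the smallest p in each direction, the 5 richest and 5 poorest, the 5 regions with the highest score in the weakest library of each class, the 5 widest regions and the 3 longest gaps. Members, lists and tests were chosen with earlier results of these data known. No genome of rheMac8 was used here, so no sequences are shown and hotspots were not annotated with genes. Not analysed here were the RNA-seq, whole genome bisulfite and CUT&RUN experiments that the design text names. Python 3.11.15, numpy 2.4.6, pandas 2.3.3 and matplotlib 3.10.9 were used. Alternatives are in the closing section.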

Additional observations from a re-analysis of the deposited data

How the results depend on the processing

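Only 2 libraries per group, unknown depth and lists of unequal length limit every comparison, and no exact test between AG and GG could go below p = 0.333. Alternatives were shorter or filtered lists, each library left out, other rules for regions and other windows, offsets and scalings. Mean covered length and mean share of covered bp kept their direction under all of those run, at -2.53 to -0.0740 Mb and -0.579 to -0.109 percentage points (AG minus GG). With lists shortened to the same covered length the groups overlapped in both measures (two-sided exact permutation p = 0.667). Median width differed by -166.5 to 0 bp.

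Hotspot number, AG minus GG, was -1395.5 and reversed to 925.5 with lists shortened to the same covered length (-2209.5 to -581.5 with 1 library left out). Density against the other autosomes reversed to -0.251 per Mb with only the higher-scoring 50% of hotspots. The excess of the Jaccard index within over between groups, 0.0450, is a mean over the AG and the GG pair. It was 0.0117 and 0.0139 without GG replicate 1 or 2, where only the AG pair is left. Without AG replicate 1 or 2, where only the GG pair is left, the excess was 0.0911 and 0.0633. The higher-scoring 50% of hotspots gave 159 AG-only and 479 GG-only regions and 482 in all 4 libraries. With at least 50% of a region covered, 202 were in all 4, and at equal covered length 415 were GG-only. With 1 library left out a region needs fewer libraries to count, which gave 468 to 4147 AG-only and 1150 to 4896 GG-only regions.

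By limma, 0 windows became 13 with an offset of 10000 bp, 16 with a variance trend and 1 when centred within chromosomes, or 6.99%, 8.60% and 0.538% of 186, against 5.07%, 8.13% and 0.597% of all windows. Windows under an unadjusted p of 0.05 were 18 to 46 with 1 library left out. Those fits hold 1 library in a group, so these counts are not read as a result. The shares over all windows rose and fell with them. Of 929 windows of 200 kb on the chromosome, 115 were under 0.05 (12.4%, against 11.7% of all 13265). Both AG lay above both GG in 185 (19.9%, against 22.5%) and below in 284 (30.6%, against 24.7%). Centring, which removes any difference that holds over a whole chromosome, gave 68 above (36.6%, against 28.3% of all windows) and 47 below (25.3%, against 22.5%). With 1 library left out 49 to 68 lay above (26.3% to 36.6%, against 33.9% to 38.8% of all windows). Below lay 84 to 109 (45.2% to 58.6%, against 38.9% to 45.1%). Fewer libraries need to separate in these settings. The replicate number as a block left 0 windows called and 40 under an unadjusted p of 0.05 (21.5%, against 17.2% of all windows). Scaling to the median window adds 1 constant to every window and moved the median over all windows to 0.08 from -0.04. The median of chromosome 3 minus that of all windows was -0.12, and -0.04 without AG replicate 1 and -0.06 with the higher-scoring 50% of hotspots. It was 0.02 when centred within chromosomes, a setting that takes out the difference of the chromosome as a whole. The 10 windows named by smallest p reversed under no alternative run. They were picked from the same libraries, so keeping their direction is no separate support. Of 150 values 14 passed an adjusted limma p of 0.05, all with the offset of 10000 bp, the variance trend or centring.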

Other observations

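Some high ranks on chromosome 3 belonged to regions that no other library held. The first 2 of each library by score, picked out after their values were seen, were as follows. AG replicate 1 had its 2nd hotspot of the chromosome at 67960291 to 67960527 (237 bp, score 28.5) and its 3rd at 160725521 to 160726013 (493 bp, score 26.2). AG replicate 2 had its 6th at 183994161 to 183994382 (222 bp, score 45.2) and its 11th at 38965752 to 38966511 (760 bp, score 25.2). GG replicate 1 had its 5th at 32038971 to 32039297 (327 bp, score 45.8) and its 7th at 144599614 to 144599634 (21 bp, score 29.5). GG replicate 2 had its 11th at 66825725 to 66825801 (77 bp, score 23.9) and its 12th at 24151513 to 24152675 (1163 bp, score 22.5). Widths thus ran from 21 to 1163 bp.

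Ends of hotspots almost never coincided between libraries, with 1 to 7 identical ends per pair of lists on chromosome 3. An exception chosen after its values were seen was the region at 16221087, where the hotspots of AG replicate 2, GG replicate 1 and GG replicate 2 all ended at 16222624 and that of AG replicate 1 at 16222622. Their starts were at 16221087 in AG replicate 2, 16221224 in AG replicate 1, 16221123 in GG replicate 1 and 16221538 in GG replicate 2.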
